A study of Mus musculus with 4 samples.

Results

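Genes for the subunits of the mitochondrial respiratory chain and ATP synthase were examined in developing mouse molar teeth. Members were all genes whose symbol in the platform annotation follows the naming of complex I (Ndufa, Ndufb, Ndufc, Ndufs and Ndufv followed by a number), complex II (Sdha to Sdhd), complex III (Uqcr), complex IV (Cox followed by a subunit number from 4 to 8 and a letter a, b or c) and ATP synthase, or complex V (Atp5). The rule found 78 genes among 18195, measured by 161 probe sets of the 34958 that name 1 gene. It used names only and no signal. Where a gene had several probe sets, its value is that of the brightest one by mean log2 signal.

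The RNA came from molars pulled by hand from 60 Swiss Webster pups of both sexes, untreated, between 1 and 10 days after birth. The teeth were pooled and ground, and the pool was hybridised to 4 Affymetrix Mouse Genome 430 2.0 arrays. All 4 arrays form 1 group, so no condition could be compared. Each SD is technical, p-values measure only that spread, and ages, sexes and cell types are mixed in the pool.

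The respiratory chain passes electrons from NADH and succinate to oxygen, and complexes I, III and IV pump protons across the inner mitochondrial membrane. ATP synthase uses the proton gradient to make ATP. Most subunits are encoded in the nucleus, and the others by mitochondrial DNA. Some complex IV subunits exist in a broadly expressed form and in a form known from striated muscle or from testis.

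A signal was called above background where it exceeded, on every array, the 95th percentile of 86 probe sets for olfactory, vomeronasal and taste receptor genes. That threshold ran from 996 to 1295 signal units over the arrays, and the median signal of an array from 746 to 872. A gene was called if any of its probe sets was. In a bulk pool, fewer cells of a type and less RNA per cell cannot be told apart. Signals of different probe sets also depend on the probes, so they do not rank genes by amount of mRNA. Many of these genes have processed pseudogenes in the mouse genome, and signal from near-identical copies cannot be separated by such probes.

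Signals above background on every array were found for 73 of the 78 members (93.6%), where the share among all genes was 51.6%. The one-sided limma test of signal over threshold, with Benjamini-Hochberg adjustment over all genes, gave an adjusted p under 0.05 for 73 members as well, against 51.1% of all genes. The median log2 signal was 14.79 for the members and 10.69 for all genes. With mean signals above 11835, 65 members (83.3%) lay in the brightest 10% of genes, a share of 10.0% for all genes by construction. Leaving out 1 array in turn gave 73 members each time (all genes 51.8%, 52.0%, 52.8% and 54.1%), as did 3 of 4 arrays (55.9%), quantile normalisation (51.6%) and the brightest probe set alone (51.5%). The 99th percentile gave 72 (48.2%), the 75th gave 75 (65.3%), and the median probe set of each gene gave 68 (39.3%). By number of probe sets the members were close to other genes, with 2.06 per member and 1.92 per gene overall.

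All members of complexes II, III and V were above background, as were 33 of 34 for complex I and 11 of 15 for complex IV. The median log2 signal was 14.48 for complex I, 14.52 for complex II, 14.38 for complex III, 14.76 for complex IV and 15.50 for complex V. Among members above background alone it was 15.72 for complex IV. In the brightest 10% of genes lay 29 members of complex I, 4 of complex II, 8 of complex III, 8 of complex IV and 16 of complex V. Complex IV held 4 of the 5 members that were not above background, namely Cox7a1, Cox7b2, Cox7c and Cox8b. The remaining one was Ndufb4 of complex I.

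**Figure D1:**
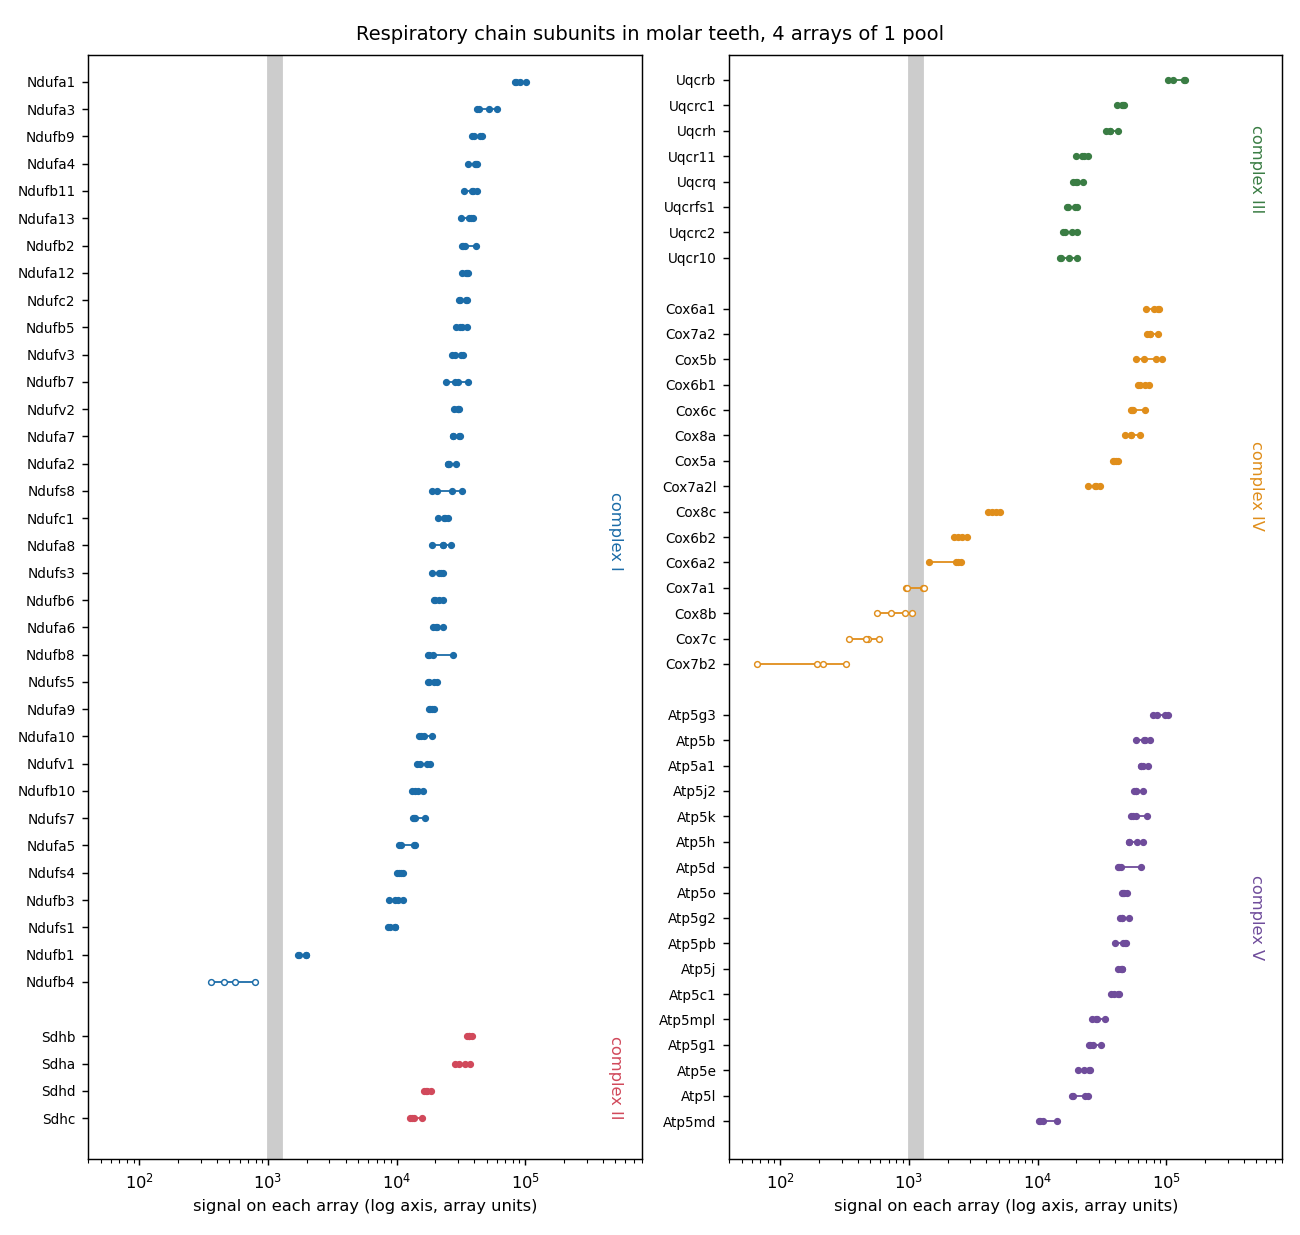
Signal of each respiratory chain member on the 4 arrays (log axis, array units), grouped by complex, 1 point per array, with a line from the lowest to the highest. Filled points are members above background, open points are members that were not, and the grey band spans the thresholds of the 4 arrays (996 to 1295). The 5 members with open points are Ndufb4, Cox7a1, Cox8b, Cox7c and Cox7b2, and 65 of the 78 have mean signals above 11835.

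Complex I takes electrons from NADH. Its 6 measured core members, which carry the flavin and iron-sulphur centres or line the path to ubiquinone, were all above background. Ndufv1, which binds NADH and the flavin, had signals of 18111, 17097, 14396 and 15067 on arrays 1 to 4. Its partner Ndufv2 had 29868, 29700, 27978 and 30422. The values of Ndufv2 stayed close together, and its SD of log2 signal was 0.05.

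Ndufs1, the largest iron-sulphur subunit, had a signal of 9165 ± 589 (SD, n = 4), Ndufs3 had 21217 ± 1702, and Ndufs7, near the ubiquinone site, had 14418 ± 1486. Ndufs8, which carries iron-sulphur clusters, had 18812, 20445, 27119 and 32426. Arrays 3 and 4 were above arrays 1 and 2 on this brightest probe set. The SD of log2 signal for Ndufs8, 0.36, was the largest among core members. Ndufs8 has 6 probe sets, all above background. That order of arrays held for those with mean signals of 24700, 23219 and 6047, but not 19735, 9201 and 2956.

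Of 28 other complex I members, 27 were above background. The 12 Ndufa genes all passed, with mean signals from 12165 for Ndufa5 to 90231 for Ndufa1, an X-linked gene for a small membrane-arm subunit. Ndufa4 is named for complex I, but its product is now counted with complex IV. It had a signal of 40052 ± 2906. Both Ndufc genes passed, as did the accessory genes Ndufs4 (10640 ± 536), Ndufs5 (18814 ± 1399) and Ndufv3 (29760 ± 2603).

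Of the 11 Ndufb genes, whose products sit in the membrane arm, 10 were above background. Ndufb1 lay nearest to the threshold among members above background, with 1750, 1986, 1968 and 1700. Its mean was 1.60-fold over the threshold, with a limma adjusted p of 0.0012. Ndufb4 had 454, 555, 795 and 363 and exceeded the threshold on 0 arrays. That value comes from 1 probe set, the only one that names Ndufb4 alone. A pair of other probe sets that name Ndufb4 together with the related genes Ndufb4b and Ndufb4c had mean signals of 15278 and 19985, so the low value does not describe all signal assigned to the gene.

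Complex II, succinate dehydrogenase, also works in the citrate cycle. Sdha, the flavoprotein, had signals of 28622, 37440, 33804 and 30280, and Sdhb, the iron-sulphur subunit, had 34904, 36306, 36540 and 38488. The membrane anchors Sdhc and Sdhd had 13783 ± 1307 and 17175 ± 861 (SD, n = 4). All 4 genes exceeded the threshold at least 11.9-fold on average.

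Complex III passes electrons from ubiquinol to cytochrome c. Uqcrfs1, the Rieske iron-sulphur protein, had 17304, 16916, 19396 and 20303, and the core proteins Uqcrc1 and Uqcrc2 had 45047 ± 2425 and 17741 ± 2049 (SD, n = 4). The small subunit Uqcrb had 103992, 138502, 113581 and 140015. Its mean of 124022 ± 18034 was the highest of the 78 members, from a probe set that carries the suffix _a_at. The other Uqcrb probe set, also above background, had 20061 ± 3668, with array 1 highest and array 4 lowest. The other small subunits, Uqcr10, Uqcr11, Uqcrh and Uqcrq, had mean signals from 17044 to 37280.

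Complex IV, cytochrome c oxidase, reduces oxygen to water. Cox5a and Cox5b, without tissue forms in the mouse, had 40007 ± 1591 and 75363 ± 15654 (SD, n = 4). Cox5b varied more, with 58487, 82929, 66796 and 93242, and the arrays ranked alike on the 2 brightest of its 6 probe sets. Its other probe sets above background, with mean signals of 38214 and 27871, had array 2 lowest and array 3 highest. Cox6c, a single-form subunit, had 57586 ± 6950. Cox7c, another broadly expressed subunit, had 477, 581, 342 and 463 and exceeded the threshold on 0 arrays. Both of its probe sets were below the threshold on every array, and the gene was thus the only single-form complex IV member not above background. No other probe set names Cox7c, and whether these report its transcript was not tested.

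The tissue forms of complex IV subunits differed in their place relative to the threshold. The 4 broadly expressed forms measured, Cox6a1, Cox6b1, Cox7a2 and Cox8a, were all above background with mean signals from 54304 to 81089. Cox6a1 had 70144, 87208, 80284 and 86719, and Cox7a2 had 71464, 74867, 74272 and 86130. Cox6b1 and Cox8a had 65976 ± 5534 and 54304 ± 6230 (SD, n = 4). None of these values came near the threshold on any array.

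Of the 3 striated muscle forms, 1 was above background, a count too small to set against the 51.6% of all genes. Cox6a2 had 2392, 2545, 2307 and 1429, the lowest value being on array 4. It passed on all 4 arrays with a mean 1.83-fold over the threshold and a limma adjusted p of 1.7e-04, and at the 99th percentile threshold it passed on 3 arrays only. Its second probe set passed on 0 arrays. Cox7a1 had 1286, 954, 1305 and 968 and exceeded the threshold on 2 arrays. Cox8b had 1061, 563, 936 and 728 and exceeded it on 1 array. The limma adjusted p was 1.00 for both Cox7a1 and Cox8b, which says only that signal over the threshold was not detected.

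Markers of skeletal muscle were measured in the same pool. Of 18 genes in the muscle list, 12 (66.7%) were above background, against 51.6% of all genes. The limma test passed 11 of them, Myh3 having an adjusted p of 0.12. The summed signal ran from 81521 to 91291 over the arrays, with Acta1, Myl1 and Tnnc2 brightest at 20889 ± 1385, 13824 ± 2129 and 8647 ± 968 (SD, n = 4). Mylpf, Ckm, Tnni2, Tnnt3, Myh8, Atp2a1, Ttn, Myh1 and Myh3 were above background as well. Of the list's other genes, Myh2, Myh4 and Mb exceeded the threshold on 0 arrays, Actn3 on 1, and Des and Pygm on 3. The heart list gave 1 of 8, Actc1, against 51.6% of all genes, with a summed signal from 6397 to 8214. Its other members, Myl2, Tnnt2, Myh6, Nppa, Myh7, Tnni3 and Myl7, exceeded the threshold on 0 arrays. The brown fat list gave 1 of 5, Dio2, a count too small to set against the 51.6% of all genes. Its summed signal ran from 3453 to 3963, with Ucp1 and Cidea at 113 ± 54.0 and 75.3 ± 26.7. Elovl3 exceeded the threshold on 0 arrays and Prdm16 on 1. The part of these tissues in the signals of the muscle forms was not tested.

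Of the 3 testis forms, 2 were above background, a count too small to set against the 51.6% of all genes. Cox8c had 4407, 4736, 5125 and 4152 on its brighter probe set, a mean 3.97-fold over the threshold with a limma adjusted p of 6.8e-13. Its other probe set exceeded the threshold on 1 array, where it had 2163. Cox6b2 had 2256, 2402, 2848 and 2596, a mean 2.17-fold over the threshold with a limma adjusted p of 3.4e-07. Cox7b2 had 65.4, 325, 214 and 192 and exceeded the threshold on 0 arrays. Its broad partner Cox7b is not analysed here. The testis marker list gave 1 of 8 (12.5%, against 51.6% of all genes), with a summed signal from 2929 to 4284. That gene was Gapdhs, at 2144 ± 395 with a limma adjusted p of 5.8e-05. The list's other genes, Ldhc, Cyct, Pgk2, Tnp1, Prm1, Prm2 and Odf1, exceeded the threshold on 0 arrays each.

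Subunit IV of complex IV lies outside the naming rule. Its broad form Cox4i1 had 64168, 69503, 65353 and 66197, and Cox4i2, known from lung and from low oxygen, had 3814, 4791, 3203 and 4246. Both were above background on every array. Cox7a2l, a paralogue of Cox7a2 whose product joins complexes III and IV, had 27916 ± 2316 (SD, n = 4).

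**Figure D2:**
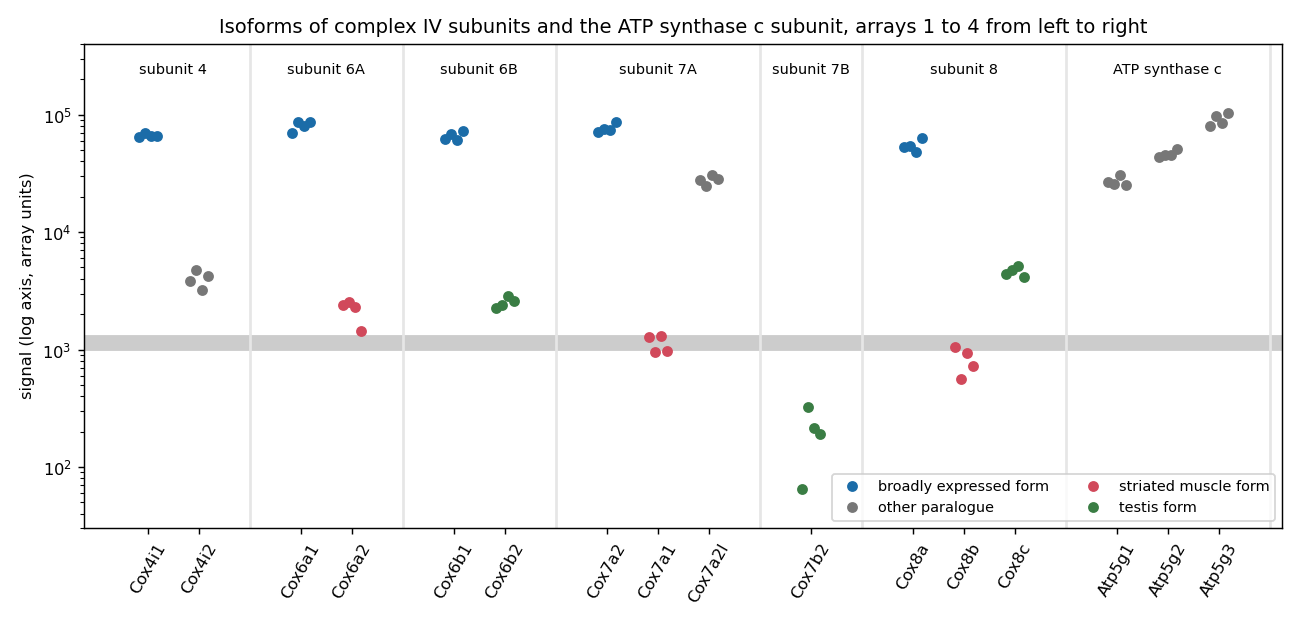
Signal of complex IV subunit forms and of the ATP synthase c subunit genes (log axis, array units), 1 point per array, with arrays 1 to 4 from left to right for each gene. Colours mark broadly expressed, striated muscle and testis forms and other paralogues, and the grey band spans the thresholds (996 to 1295). Broad forms sit between 47775 and 87208, while Cox6a2, Cox6b2 and Cox8c lie between 1429 and 5125 and Cox7a1 and Cox8b between 563 and 1305.

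Promoter sequences from RefSeq (GRCm38.p6), covering 250 bases before to 50 after an annotated start, were matched for 66 of the 78 members, in 71 entries. Those of 3 broad forms and 2 muscle forms are shown, namely the subunit VIIa and VIII pairs, whose broad form was above background and whose muscle form was not, and Cox6a1, whose muscle partner has no entry here. Capitals mark matches to the NRF1 motif (GCGC, any base, then TGCGC), the ETS motif CCGGAAG bound by GABP, and the TATA motif TATAAA, on either strand.
Cox6a1 (broad form, chr5:115348909-115349208, minus strand): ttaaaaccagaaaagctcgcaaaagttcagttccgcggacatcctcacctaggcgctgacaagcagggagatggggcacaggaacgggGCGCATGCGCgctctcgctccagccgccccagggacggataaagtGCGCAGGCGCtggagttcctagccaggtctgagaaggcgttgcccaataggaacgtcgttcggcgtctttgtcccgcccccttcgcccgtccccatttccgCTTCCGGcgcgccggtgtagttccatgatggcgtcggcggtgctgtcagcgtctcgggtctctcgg
Cox7a2 (broad form, chr9:79759804-79760103, minus strand): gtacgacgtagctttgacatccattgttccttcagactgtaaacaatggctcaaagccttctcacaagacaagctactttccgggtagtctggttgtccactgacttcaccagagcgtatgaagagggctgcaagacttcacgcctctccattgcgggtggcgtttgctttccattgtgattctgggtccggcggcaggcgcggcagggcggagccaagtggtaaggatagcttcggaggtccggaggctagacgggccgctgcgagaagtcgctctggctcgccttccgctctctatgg
Cox7a1 (muscle form, chr7:30183921-30184220, plus strand): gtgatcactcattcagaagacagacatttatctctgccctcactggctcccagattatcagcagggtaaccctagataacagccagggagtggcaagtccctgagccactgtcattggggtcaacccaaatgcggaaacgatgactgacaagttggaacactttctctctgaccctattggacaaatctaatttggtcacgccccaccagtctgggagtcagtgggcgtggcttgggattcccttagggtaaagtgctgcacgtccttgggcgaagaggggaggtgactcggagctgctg
Cox8a (broad form, chr19:7217567-7217866, minus strand): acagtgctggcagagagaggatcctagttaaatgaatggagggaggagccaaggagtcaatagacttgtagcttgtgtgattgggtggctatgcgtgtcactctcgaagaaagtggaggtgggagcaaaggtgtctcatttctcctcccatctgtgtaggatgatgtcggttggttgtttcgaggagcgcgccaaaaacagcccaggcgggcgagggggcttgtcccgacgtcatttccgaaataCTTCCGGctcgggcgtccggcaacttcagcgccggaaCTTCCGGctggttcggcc
Cox8b (muscle form, chr7:140900397-140900696, minus strand): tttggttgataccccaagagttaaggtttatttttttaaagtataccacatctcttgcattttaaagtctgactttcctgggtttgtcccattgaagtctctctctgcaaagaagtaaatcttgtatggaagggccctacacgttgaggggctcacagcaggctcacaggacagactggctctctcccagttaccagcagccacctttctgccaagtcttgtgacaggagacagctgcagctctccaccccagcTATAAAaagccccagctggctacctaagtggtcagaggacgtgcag

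The Cox6a1 window held 2 NRF1 matches and 1 ETS match, and the Cox8a window 2 ETS matches. The Cox8b window held a TATA match that begins 4 bases after the annotated start, and those of Cox7a2 and Cox7a1 held none of the 3 motifs. Over all member entries, the NRF1 motif occurred in 16 of 71 (22.5%), against 4.60% of all 32851 promoter entries. The ETS motif occurred in 17 (23.9%), against 8.86%, and the YY1 motif AAGATGGCG in 6 (8.45%), against 1.40%. TATAAA occurred in 9 (12.7%), against 13.6%, and CCAAT in 29 (40.8%), against 37.4%.

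At least 1 of the NRF1, ETS and YY1 motifs was found for 33 of the 66 members with an entry. Both NRF1 and ETS were found for 4 members. Shares over all promoter entries were not computed for these combinations. By complex, the NRF1 motif was found for 5 of 31 genes with an entry in complex I and 2 of 3 in complex II. For complexes III, IV and V it was 1 of 5, 1 of 12 and 6 of 15. The median GC content was 58.3% for member entries and 52.7% for all entries, and motifs rich in G and C are more frequent in such sequence. In the printed windows no match overlapped one of another motif searched, and a match is a description of letters, not a bound site. The 78 genes lie on 19 chromosomes. Neighbouring pairs were Atp5d and Ndufs7, with 5 protein-coding genes between them, and Ndufs8 and Ndufv1, with 8.

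All 17 members of ATP synthase were above background. The catalytic head subunits Atp5a1 and Atp5b had 63713, 66296, 63180 and 72703, and 67049, 57800, 74221 and 67799. The stalk subunits Atp5c1, Atp5d and Atp5e had 40332 ± 2534, 48331 ± 9902 and 23634 ± 2329 (SD, n = 4). Atp5d had 63141 on array 4 against 42524 to 44370 on the others, so 1 array sets the SD of this probe set. On its other probe set, also above background, array 4 had 26498 and the others 20594 to 25736.

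The membrane ring of ATP synthase is built from the c subunit, which 3 genes encode with the same mature protein and different import sequences. Atp5g1 had 26912, 25532, 30896 and 25184, Atp5g2 had 43700, 45334, 45290 and 51287, and Atp5g3 had 79423, 97500, 84905 and 102523. Each was above background on every array, and the probe sets do not allow the genes to be ranked. The peripheral stalk genes Atp5pb, Atp5h, Atp5j and Atp5o had mean signals of 45605, 57051, 44189 and 47113. The small membrane-sector genes Atp5j2, Atp5k, Atp5l, Atp5md and Atp5mpl ranged from 11459 to 59708.

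Probe sets of the same gene often disagreed. Of 161 member probe sets, 130 (80.7%) were above background, against 42.5% of all probe sets that name 1 gene. Of the 48 members with several probe sets, 29 had all of them above background, 18 had some, and Cox7c had none. The median gap in mean log2 signal between the brightest and the dimmest probe set was 2.36. It was largest for Ndufb9 (8.43), followed by Sdha (7.92), Cox8a (7.59), Cox5b (7.54) and Atp5g2 (7.16).

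Of these 5, Atp5g2 rested on 1 probe set above background out of 3, Sdha on 2 of 4, Cox5b on 4 of 6, and Ndufb9 and Cox8a on 2 of 3. Atp5c1, Atp5g1, Ndufa10, Ndufb8, Cox6a2 and Cox8c rested on 1 of 2, and Uqcrq and Ndufs4 on 1 of 4. Ndufa3, Ndufb2 and Uqcr10 had 2 of 3 above background, and Ndufa12 and Ndufc2 had 3 of 4. Probe sets with the suffix _a_at, shared by transcripts of 1 gene, were above background in 36 of 36 cases. Those with _s_at were in 16 of 17, those with _x_at in 25 of 29, and those without such a suffix in 53 of 79. Shares by suffix over all probe sets that name 1 gene were not computed, so this order cannot be ascribed to the members. Without any probe set of these suffixes, 63 members could be measured and 50 (79.4%) were above background, against 46.6% of all genes.

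**Figure D3:**
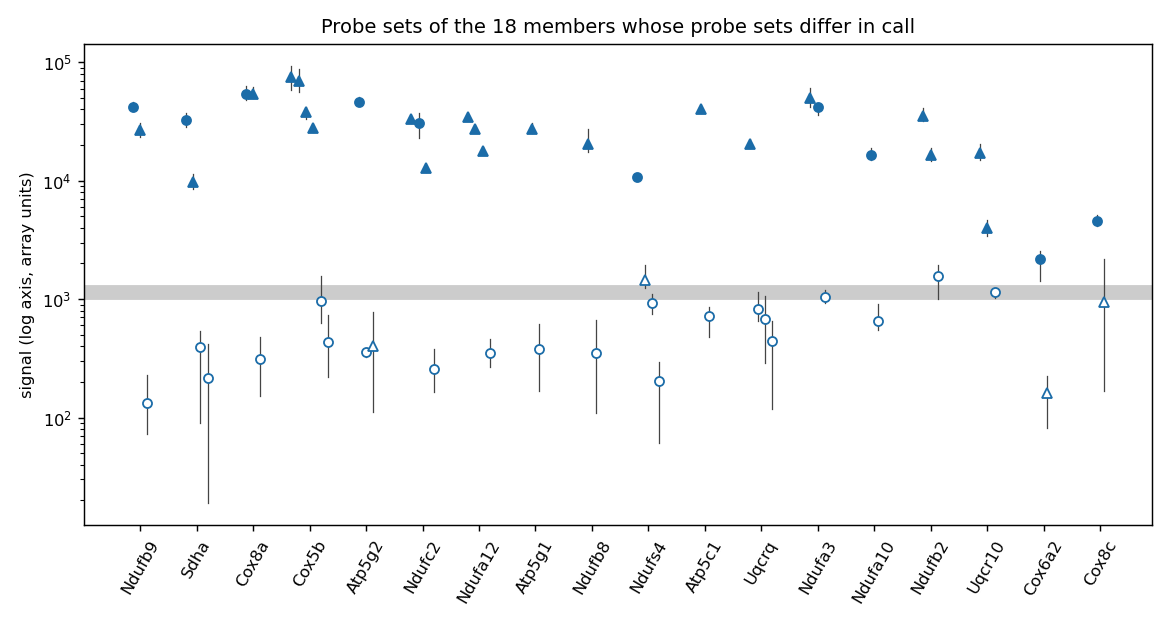
Mean signal (log axis, array units) of each probe set of the 18 members whose probe sets differ in their call, with lines from the lowest to the highest array. Circles are probe sets without a shared-sequence suffix and triangles those with one, filled where above background on all 4 arrays, and the grey band spans the thresholds (996 to 1295). Each gene has at least 1 filled and 1 open symbol, with the largest log2 gap, 8.43, for Ndufb9.

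Among the 73 members above background, the median SD of log2 signal was 0.13, against 0.16 for all genes above background. Array 4 gave the highest of the 4 values for 43 of the 73 members (58.9%), against 34.6% of all genes above background. The median deviation of these members from their own mean was 0.10 on array 4 and -0.05, -0.03 and -0.04 on arrays 1 to 3. After quantile normalisation, array 4 was highest for 30 of 73 (41.1%), against 32.5%.

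Other genes of mitochondrial energy metabolism were counted in the same way. Chain genes that the naming rule leaves out were above background for 6 of 6, against 51.6% of all genes. Of these, Cox4i1, Cycs (cytochrome c, 46262 ± 3205) and Cyc1 (cytochrome c1, 29613 ± 2600) were brightest. The others were Ndufab1, Cox4i2 and Ndufa4l2. The citrate cycle list gave 11 of the 11 genes measured out of 12 listed, against 51.6% of all genes, with Mdh2, Cs and Dlst brightest at 47769 ± 5046, 40936 ± 3427 and 16737 ± 1622 (SD, n = 4).

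Assembly factors, which help build the complexes without staying in them, were above background for 36 of 41, a share of 87.8% against 51.6% of all genes, and 35 passed the limma test. Their median log2 signal was 11.74. Cox20, Coa3 and Uqcc2 were brightest, at 18578 ± 1622, 13270 ± 1167 and 12073 ± 779 (SD, n = 4), and Tmem126b, Sco1, Sco2, Ndufaf6 and Lyrm7 were not above background. Cox14 and Taco1 are not analysed here.

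A list of regulators of mitochondrial genes and enzymes of mitochondrial DNA was above background for 13 of 15 (86.7%, against 51.6% of all genes). Its median log2 signal was 12.01. Yy1, Polg and Pprc1 were brightest, at 13870 ± 776, 5616 ± 98.4 and 5573 ± 304 (SD, n = 4). Nrf1, which binds the motif of that name, had 1828 ± 304, and Gabpa, the DNA-binding subunit of GABP, had 4141 ± 406. The coactivator gene Ppargc1a had 2566 ± 332. Tfb1m, on 3 arrays, and Mterf1a, on 0, were not above background. The 13 subunit genes of mitochondrial DNA had 0 probe sets named for them and are not analysed here.

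**Figure D4:**
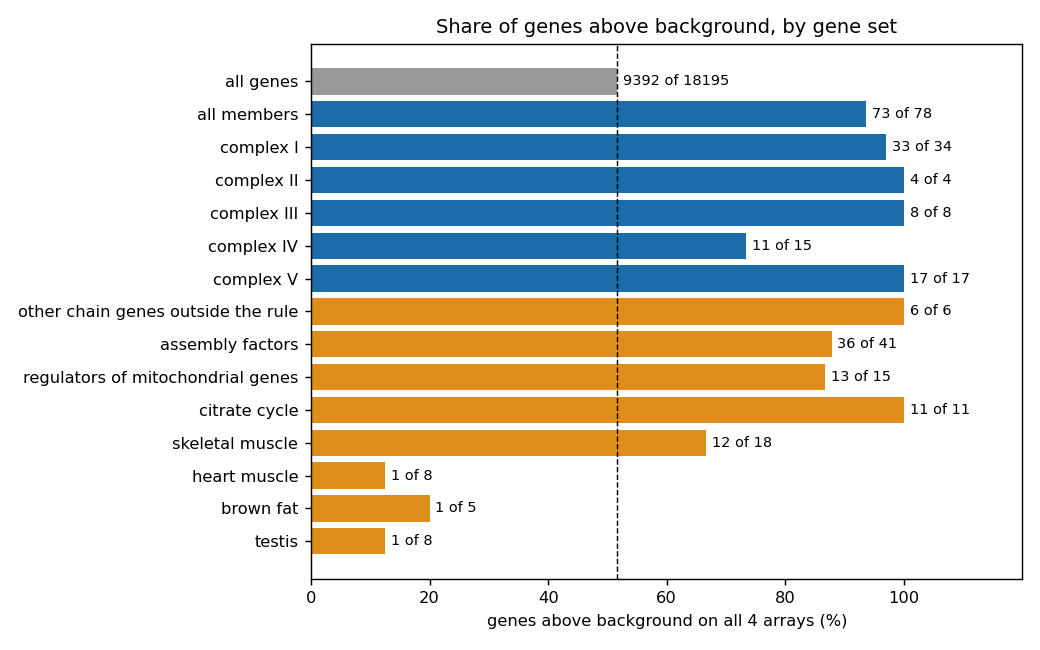
Percentage of genes above background on all 4 arrays for all genes, for the respiratory chain members, for each complex and for the comparison lists, with counts beside the bars and a dashed line at the share of all genes (51.6%). The chain members stand at 73 of 78 and complex IV at 11 of 15, while the heart muscle, brown fat and testis lists stand at 1 of 8, 1 of 5 and 1 of 8.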

How the data were processed

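The authors deposited linear signal intensity values of 45101 probe sets on each array, made with MAS5 per the submitters' processing notes. Of the MAS5 run, neither version nor settings nor detection calls are stated in the labels. MAS5 subtracts a mismatch estimate, so low signals are noisy. Genes were named from the platform annotation, and all 78 members matched the reference gene table (GRCm38.p6) under the same symbol. For each array, log2 of signal over the threshold was tested against 0, one-sided, with limma 3.58.1 (lmFit and eBayes with a mean-variance trend, R 4.3.3) on the brightest probe set of all 18195 genes, with Benjamini-Hochberg adjustment. The threshold's own error is not part of that test. The precision is limited by the 4 arrays, and a share is read against that of all genes.

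Members and lists were chosen with earlier results of these data known. Named are the tissue forms, core subunits, members not above background, the 5 members with the largest SD and those whose probe sets differ, and from other lists the members not above background and the 3 brightest. Some other members are named as examples. Alternatives were other percentiles, 3 of 4 arrays, quantile normalisation, probe sets without shared-sequence suffixes, the median or the brightest probe set alone, limma without the trend and leaving out each array. Probe sets that name several genes were left out of the counts.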

Additional observations from a re-analysis of the deposited data

Results flagged for a closer look

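A gap test on 84 sets of 4 values found 6 in which a single array was far from the rest, and chance alone yields about 1 in 20, or 4.2 of 84. The 4.2 treats the sets as separate, although the median of a complex is built from its members, and the values are as deposited. In 5 of the 6 the far array was array 4, also highest for 43 of the 73 members above background (30 after quantile normalisation). On the log2 scale it was higher for Atp5d (15.95, others 15.38 to 15.44), Cox6c (16.05, others 15.71 to 15.75), Ndufs7 (14.02, others 13.72 to 13.76) and the median of complex V (15.60, others 15.46 to 15.47), and lower for Cox6a2 (10.48, others 11.17 to 11.31). Ndufa2 was higher on array 1 (14.83, others 14.61 to 14.63).

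Probe sets that name a member together with other genes gave signals outside the counts. Of 9 such probe sets, 6 were above background on all 4 arrays, a count too small to set against the 42.5% of probe sets that name 1 gene. Those naming Ndufb4b, Ndufb4c and Ndufb4 had mean signals of 15278 and 19985, and those naming Ndufa11b and Ndufa11 had 15975 and 1560. The probe set for Ndufs6b and Ndufs6 had 14665 and that for Ndufs5 and its pseudogene 7888.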

How the results depend on the processing

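The count of members above background stayed between 68 and 75 of 78 under the settings that keep all probe sets, and was 50 of 63 without shared-sequence suffixes. The limma count was 69 to 75. The median log2 signal, 14.79, was 14.34 by the median probe set and 14.33 without suffixes, and 14.76 to 14.82 with 1 array left out. Over 47 named members and these settings, 491 of 509 values kept their side and their call. The mean log2 of signal over threshold changed sign without suffixes for Atp5c1 (-0.74), Atp5g1 (-1.78), Cox5b (-0.36), Ndufa12 (-1.77), Ndufb8 (-2.18), Uqcr10 (-0.0077) and Uqcrq (-0.53), since their bright probe sets carry a suffix. By the median probe set it did so for Atp5g2 (-1.39), Cox6a2 (-1.04), Ndufs4 (-0.014) and Uqcrq (-0.58). At the 75th percentile it became positive for Cox7a1 (1.16), Cox8b (0.68) and Ndufb4 (0.060), with Cox7a1 and Cox8b then above background. With 1 array left out, Cox7a1 ranged from -0.19 to 0.060, positive without array 4, and was not above background in any of these 4 settings. Cox6a2 at the 99th percentile, Ndufb2 without suffixes and Cox8c by the median probe set kept their sign but were not above background. Not above background does not mean not expressed: MAS5 signals under the threshold carry no order. No paired analysis was possible because all arrays form 1 group.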
